A study of Homo sapiens with 27 samples.

Results

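The 46 genes described here encode the proteins that mark replication origins, open the DNA double helix and copy both strands in S phase. They were taken by name, as a list of the origin recognition complex, the replicative helicase and its loaders and cofactors, the activating kinase, the sliding clamp and clamp loader, the replicative polymerases, and the proteins that join, protect and repackage the new strands. All 46 were represented on the Human Genome U133 Plus 2.0 array, by 83 of its 54675 probe sets, against 19775 genes in 41097 probe sets that carry a single gene symbol. Each gene was read by the probe set with the highest mean over the 27 arrays, as a log2 signal, so a difference of 1 is a 2-fold change and levels of different genes are not compared with each other. On this scale 4 of the 46 genes had a mean below 5, which is close to the lowest value of 2.28 that the normalization gives.

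Cells of 3 cancer lines were grown on glass plates for 72 h in 3 conditions, with 3 arrays labelled as biological replicas in each of the 9 groups. PC-3 cells come from a prostate cancer, SK-OV-3 cells from an ovarian cancer and WM793B cells from a melanoma, and each line was kept in its own medium. Cycling hypoxia consisted of periods of 4 h and 12 h at 1% oxygen, each followed by 4 h at 21% oxygen, chronic hypoxia of 1% oxygen throughout, and control cells stayed at 21% oxygen. No source used here says whether the replicas were separate cultures started on different days, so the p values measure the spread between these arrays.

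DNA replication is licensed in G1, when the origin recognition complex, CDC6 and CDT1 load the MCM2 to MCM7 ring onto DNA, and geminin (GMNN) later blocks further loading. In S phase the CDC7 kinase with its partner DBF4 activates the ring, CDC45 and the GINS complex join it to form the working helicase, and polymerase alpha with primase starts each new strand that polymerases delta and epsilon extend on the PCNA clamp. Many of these genes are transcribed mainly in proliferating cells, by factors of the E2F family that are held in check in resting cells.

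The E2F site was looked for in the promoters because most of the genes were lower in both PC-3 and WM793B cells. RefSeq promoter windows of GRCh38.p14, with 250 bases before and 50 after the start site, were matched for 40 of the 46 genes (MCM4, MCM5, GINS4, POLD3, RPA2 and RPA3 had none). One of the words TTTCCCGC, TTTCGCGC, TTTGCCGC or TTTGGCGC was present on either strand in 17 of the 40 windows (42.5%), against 1164 of all 35116 windows (3.31%) and 910 of 22199 windows of protein-coding genes (4.1%). The CCAAT box (CCAAT on either strand) was present in 21 of the 40 windows (52.5%, against 34.6% of all windows), and the cell cycle element TTTGAA or TTCGAA in 2 of them (5%, against 16.4%). A match is a description of the letters and not evidence of binding. The stretches of 80 bases that follow lie upstream of the start sites of 7 genes with such a match and are written 5′ to 3′ on the strand of the gene, with the match in capitals. They were chosen after the values were seen, to show genes whose mRNA level is described below, from the helicase (MCM3 and MCM6), the primer-making polymerase (POLA1), the clamp and its loader (PCNA and RFC3), the ligase (LIG1) and the helicase loader (CDT1).
MCM3 (chr6:52284873-52284952, minus strand): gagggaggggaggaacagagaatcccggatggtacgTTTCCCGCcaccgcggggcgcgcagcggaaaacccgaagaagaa
MCM6 (chr2:135876552-135876631, minus strand): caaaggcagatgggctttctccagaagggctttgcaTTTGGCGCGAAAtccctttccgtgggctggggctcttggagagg
POLA1 (chrX:24693745-24693824, plus strand): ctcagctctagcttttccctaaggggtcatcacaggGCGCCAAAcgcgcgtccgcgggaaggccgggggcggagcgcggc
PCNA (chr20:5126638-5126717, minus strand): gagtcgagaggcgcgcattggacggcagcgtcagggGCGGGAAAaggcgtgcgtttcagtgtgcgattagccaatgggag
RFC3 (chr13:33818058-33818137, plus strand): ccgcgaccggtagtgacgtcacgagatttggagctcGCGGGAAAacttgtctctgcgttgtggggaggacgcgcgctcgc
LIG1 (chr19:48170415-48170494, minus strand): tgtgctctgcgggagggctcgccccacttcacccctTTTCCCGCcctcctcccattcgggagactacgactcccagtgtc
CDT1 (chr16:88803709-88803788, plus strand): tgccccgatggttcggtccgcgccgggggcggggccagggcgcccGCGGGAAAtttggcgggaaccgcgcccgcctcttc
In MCM6 the capitals hold a pair of overlapping matches that read the site from both strands, and in the other 6 stretches they hold a single match. The match begins 174 bases before the start site in MCM3, 152 in MCM6, 137 in POLA1, 114 in LIG1, 59 in PCNA, 55 in RFC3 and 35 in CDT1.

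The labels were checked against marker genes. SOX10, a transcription factor of melanocytes and melanoma, averaged 10.43 in WM793B control cells and lay at the lowest value in SK-OV-3 and close to it in PC-3 control cells, while the pigment genes PMEL, MLANA and TYR were at or next to the lowest value in all 3 lines. MITF, another regulator of the melanocyte lineage, went against the melanoma label, with control means of 8.38 in WM793B, 9.26 in SK-OV-3 and 7.66 in PC-3 cells. The epithelial genes KRT18, EPCAM and CDH1 averaged between 9.76 and 12.33 in PC-3 and SK-OV-3 control cells and at most 4.24 in WM793B control cells, and the leukocyte genes PTPRC and CD3E were at or next to the lowest value in all 3. All 7 measured hypoxia-inducible genes of a list of 8 were higher under chronic hypoxia than in control cells in each line, and under cycling hypoxia all 7 were higher in PC-3 cells, 6 of the 7 in SK-OV-3 cells and 3 of the 7 in WM793B cells. One array stood apart: in the array of WM793B chronic hypoxia replicate 3 the 46 genes had a median shift of -0.87 from the control mean, against -1.63 and -1.73 in replicates 1 and 2. The 7 hypoxia-inducible genes had a median shift of 2.67 in that array, against 2.30 and 2.24 in replicates 1 and 2. Results in WM793B cells are also given without this array. Since it was picked by the values of the 46 genes themselves, the larger counts without it follow in part from that choice and are a description only.

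Under chronic hypoxia most of the genes were lower in PC-3 and WM793B cells, and most were not called in SK-OV-3 cells. In PC-3 cells 43 of the 46 genes were lower than in control cells, 1 was higher and 2 did not pass the test (limma, adjusted p under 0.05 over all probe sets), whereas 27.1% of all 17021 genes tested were lower and 16% were higher. The median log2 fold change of the 46 genes was -1.07, that of all genes lay next to 0, and 26 of the 43 were at least 2-fold lower, against 8.44% of all genes. WM793B cells had 36 lower genes, 1 higher and 9 not called, against 14.8% lower and 11.3% higher of 16433 genes, with a median of -1.43 and 28 genes at least 2-fold lower (4.35% of all genes). Without the array that stood apart 39 of the 46 were lower and 1 was higher, at a median of -1.71, against 14.8% and 12.5% of all genes. SK-OV-3 cells had 4 lower and 8 higher genes and 34 not called, against 16.6% lower and 14.2% higher of 17178 genes, at a median of 0.03. Both of these shares of the 46 genes, 8.7% and 17.4%, lay near or below those of all genes. Since the array measures RNA from a whole culture, fewer cells in S phase and less of these RNAs per cell cannot be told apart from the arrays. The study states that flow cytometry, with data not shown, found no cell cycle differences between hypoxic and control samples. That measurement was not used here.

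Under cycling hypoxia fewer of the genes were called in each line. PC-3 cells had 33 lower and 2 higher genes under cycling hypoxia (16.5% and 13.8% of all genes), at a median log2 fold change of -0.61, with 9 at least 2-fold lower (2.27% of all genes). In WM793B cells 10 genes were lower and none was higher (4.49% and 5.04% of all genes), at a median of -0.83. Of the 46 estimates 42 were negative, and 32 genes had an unadjusted p under 0.05. The shares of all genes for these last counts were not taken, so they cannot be read as particular to the 46 genes. Without chronic replicate 3, which enters the shared estimate of the spread, 25 genes were lower at the same median (6.3% of all genes lower and 6.56% higher), and with any other array of the line left out the count was between 5 and 9. SK-OV-3 cells had 2 lower and 2 higher genes (9.95% and 10.7% of all genes), at a median of 0.06. Genes above a level of 5 were called more often throughout, and among them the share of lower genes under chronic hypoxia was 44.2% in PC-3 cells (42 of the 45 genes of the set), 28% in SK-OV-3 cells (4 of 41) and 23.4% in WM793B cells (34 of 44).

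**Figure D1:**
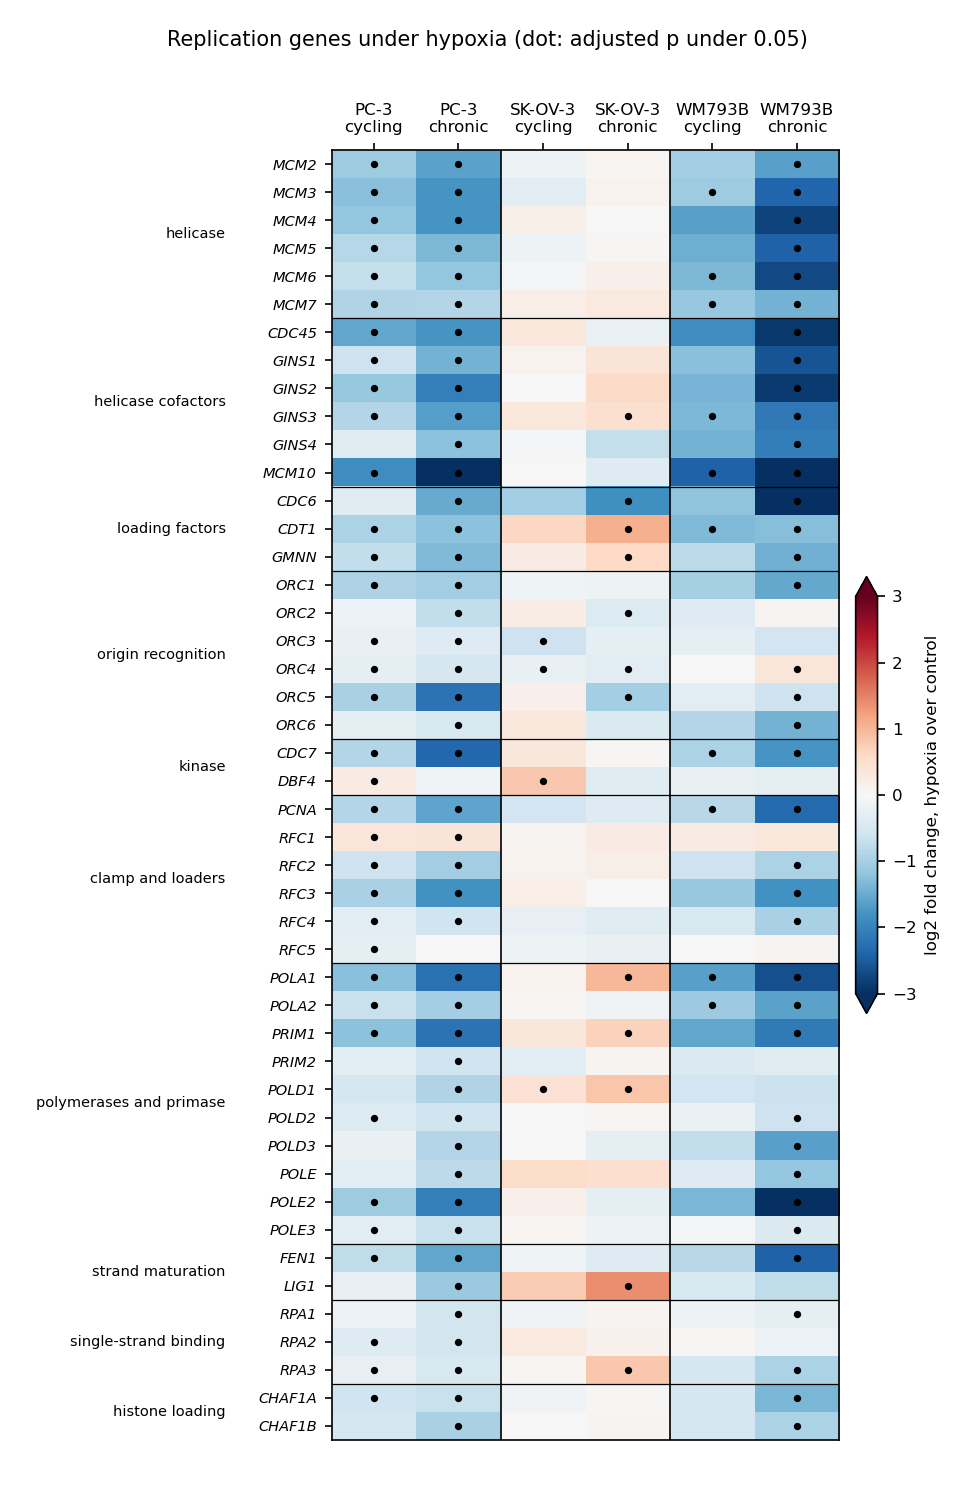
Log2 fold change of each of the 46 replication genes (rows, grouped by role) over control for cycling and chronic hypoxia in each cell line (columns); blue is lower and red is higher than control, the colour scale ends at 3 in both directions, and a dot marks an adjusted p under 0.05. The PC-3 and WM793B columns are blue in nearly every row, the SK-OV-3 columns hold both colours, and the chronic columns carry 44, 12 and 37 dots in PC-3, SK-OV-3 and WM793B cells.

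**Figure D2:**
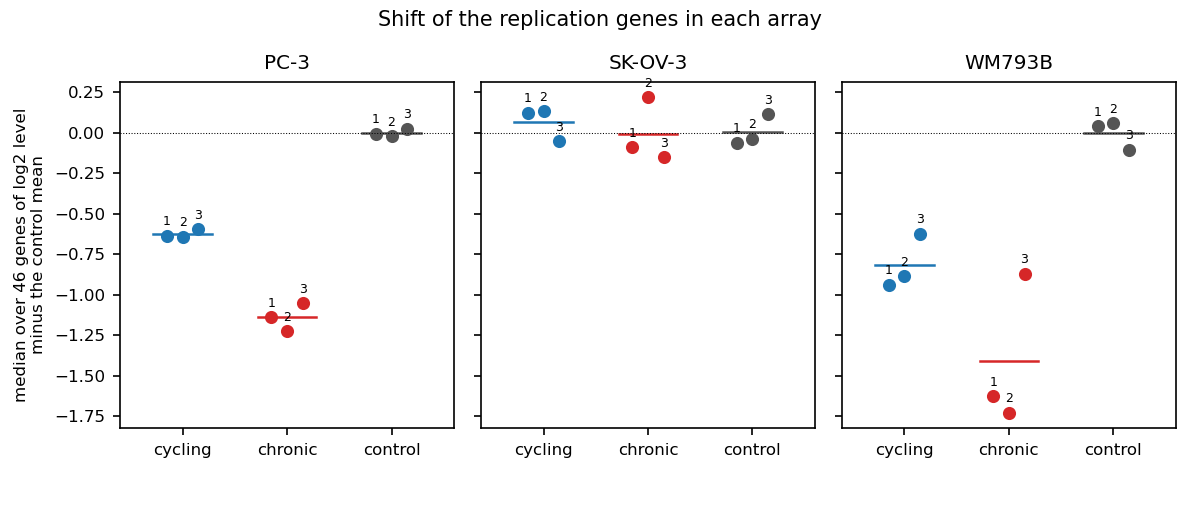
Median over the 46 genes of the log2 level minus the control mean of the same cell line (y axis), for each array (points, numbered by replicate) in the cycling, chronic and control groups of each line; horizontal bars are the means of 3 arrays. The chronic arrays of PC-3 cells lie between -1.22 and -1.05 and those of SK-OV-3 cells between -0.15 and 0.22, and WM793B chronic replicate 3 lies at -0.87, apart from the other chronic arrays of that line.

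The MCM2 to MCM7 ring is the motor of the replicative helicase, and its 6 genes were lower together in the chronic comparisons of PC-3 and WM793B cells. In PC-3 cells all 6 were lower under both cycling and chronic hypoxia, with medians of -0.98 and -1.48. In WM793B cells all 6 were lower under chronic hypoxia (median -2.40) and 3 of them, MCM3, MCM6 and MCM7, under cycling hypoxia (median -1.24). None of the 6 was called in either comparison in SK-OV-3 cells, where the medians were -0.09 for cycling and 0.08 for chronic hypoxia.

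MCM6 had 8.58, 8.44 and 8.52 in WM793B cells under cycling hypoxia and 6.96, 6.91 and 7.57 under chronic hypoxia, against 9.90, 10.09 and 9.59 in control cells. The 3 groups did not overlap, and chronic replicate 3 was the highest of its group. The chronic log2 fold change was -2.71 ± 0.20 (SE, limma adjusted p = 0.000281), and the cycling one was -1.35 ± 0.20 (adjusted p = 0.0115). PC-3 cells had 9.37, 9.27 and 9.22 under cycling hypoxia and 8.80, 8.86 and 8.83 under chronic hypoxia, against 9.99, 9.98 and 10.00 in control cells. The groups were again apart, with a smaller chronic change of -1.16 ± 0.04 (limma adjusted p = 1.64e-06). In SK-OV-3 cells the 9 arrays lay between 8.39 and 9.07, with the groups overlapping. The chronic change in SK-OV-3 cells exceeded that in PC-3 cells by 1.31 ± 0.23 and that in WM793B cells by 2.86 on the log2 scale.

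MCM3 was among the 3 genes of the set that changed most in PC-3 cells under cycling hypoxia, with 8.31, 8.13 and 8.22 in cycling, 7.79, 7.57 and 7.76 in chronic and 9.38, 9.48 and 9.56 in control arrays. Its log2 fold change was -1.25 ± 0.08 under cycling hypoxia (limma adjusted p = 6.29e-05) and -1.77 ± 0.08 under chronic hypoxia (adjusted p = 4.98e-06). MCM7 differed from the rest of the ring in PC-3 cells in that cycling and chronic hypoxia gave nearly the same change, -0.90 and -0.87. The difference between both conditions was -0.02 ± 0.08 (limma adjusted p = 0.948), whereas the other 5 ring genes were higher by 0.46 to 0.62 under cycling than under chronic hypoxia.

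The helicase cofactors, CDC45, the 4 GINS subunits and MCM10, which helps to start unwinding, had chronic medians somewhat below those of the ring in PC-3 and WM793B cells, a difference that was not tested. All 6 were lower under chronic hypoxia in PC-3 cells (median -1.71) as well as WM793B cells (median -2.73). MCM10 had the largest decrease of the set in both lines. In PC-3 cells it had 3.82, 3.70 and 3.85 under cycling hypoxia and 2.57, 2.30 and 2.90 under chronic hypoxia, against 5.80, 5.55 and 5.66 in control cells. WM793B cells had 4.53, 3.95 and 4.94 under cycling hypoxia and 2.28, 2.56 and 3.62 under chronic hypoxia, against 6.91, 6.88 and 6.90 in control cells. In both lines the groups were apart, and the chronic arrays came down to or near the lowest value that the normalization gives, so that the fold change has a floor. For cycling hypoxia the log2 fold change was -1.88 ± 0.16 in PC-3 cells (limma adjusted p = 0.000211) and -2.42 ± 0.38 in WM793B cells (adjusted p = 0.0145), and the second call was lost by a narrow margin without WM793B control replicate 1 or 2 (adjusted p = 0.0527 and 0.0531). In SK-OV-3 cells MCM10 lay between 2.55 and 4.36 in all 9 arrays, near background in every condition.

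CDC45, which holds the helicase together with GINS, was the second most changed gene in PC-3 cells under cycling hypoxia, with 4.44, 4.56 and 4.76, against 6.21, 5.99 and 6.22 in control cells (log2 fold change -1.55 ± 0.14, limma adjusted p = 0.000317). Its chronic arrays, at 4.24, 4.24 and 4.62, overlapped with the cycling ones. CDC45 averaged 4.49 over the 27 arrays and 3.91 in SK-OV-3 control cells. At such levels a floor can limit the change, which was not tested. GINS1, GINS2 and GINS4 were lower under chronic hypoxia in PC-3 and WM793B cells and not called in SK-OV-3 cells. Under chronic hypoxia GINS3 had the smallest p of the 46 genes in the F-test of differences between the lines. It had 6.01, 6.10 and 6.15 in cycling, 6.07, 6.26 and 6.40 in chronic and 5.59, 5.74 and 5.97 in control arrays of SK-OV-3 cells. In WM793B cells the values were 5.05, 5.20 and 5.05 in cycling and 4.07, 4.27 and 4.54 in chronic arrays, against 6.55, 6.43 and 6.34 in control arrays. Thus GINS3 was higher in chronically hypoxic than in control SK-OV-3 cells (0.47 ± 0.12, limma adjusted p = 0.0329, and up to 0.0945 with 1 array left out, the call lost in 7 of 9 such tests), and lower in WM793B cells (-2.15 ± 0.14, adjusted p = 0.00019). In PC-3 cells the change was -1.64 ± 0.18 (limma adjusted p = 0.000322).

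**Figure D3:**
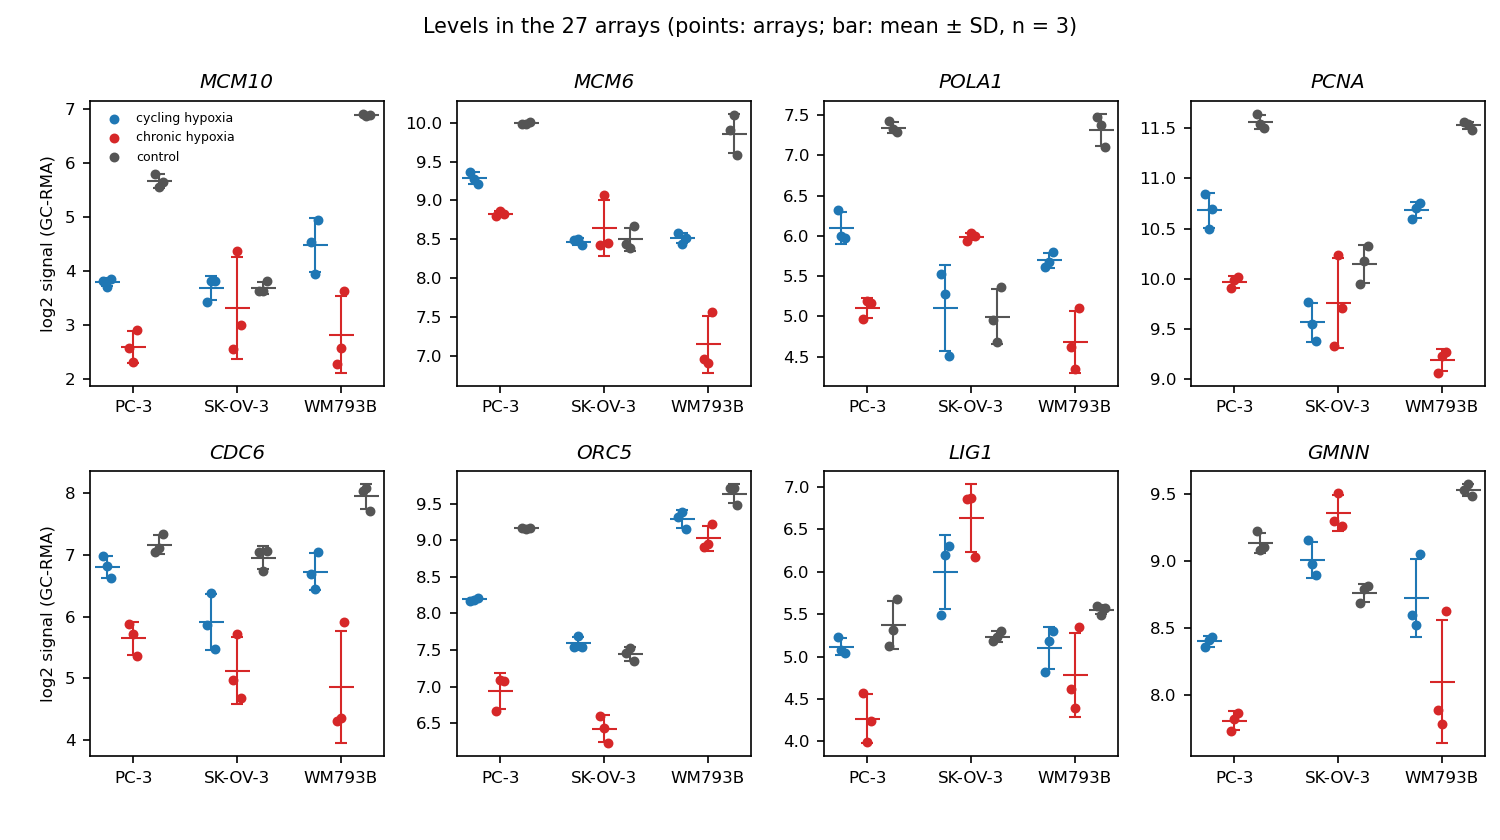
Log2 signal (y axes, GC-RMA, each on its own range) of 8 replication genes in the 27 arrays, by cell line and condition; points are arrays, and bars give the mean ± SD of 3 arrays. MCM10, MCM6, POLA1 and PCNA fall in PC-3 and WM793B cells under both forms of hypoxia, CDC6 and ORC5 fall under chronic hypoxia in all 3 lines, and LIG1 and GMNN are higher under chronic hypoxia than in control cells in SK-OV-3 cells.

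The loading factors, which bring the ring to origins, went separate ways in SK-OV-3 cells. CDC6, the ATPase that completes loading, was one of only 2 genes of the set that fell under chronic hypoxia in all 3 lines. It had 4.97, 5.73 and 4.68 in SK-OV-3 chronic arrays, against 7.05, 6.74 and 7.07 in control arrays (log2 fold change -1.83 ± 0.32, limma adjusted p = 0.00647). In WM793B cells it had 4.32, 4.36 and 5.91 under chronic hypoxia, against 8.03, 8.09 and 7.72 (-3.08 ± 0.43, limma adjusted p = 0.00295, and -3.61 without the third chronic array). Chronic and control arrays did not overlap in any line. The change was -1.52 ± 0.16 in PC-3 cells (limma adjusted p = 0.000246). Under cycling hypoxia CDC6 had 5.86, 6.38 and 5.48 in SK-OV-3 arrays and 6.98, 6.83 and 6.62 in PC-3 arrays, and it passed the test in none of the 3 lines (limma adjusted p = 0.084 for SK-OV-3, 0.182 for PC-3 and 0.162 for WM793B), although the WM793B test without chronic replicate 3 gave an adjusted p of 0.0128.

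CDT1, the partner of CDC6 in loading, moved the other way in SK-OV-3 cells, with 5.29, 5.73 and 5.29 under chronic hypoxia, against 4.35, 3.90 and 4.87 in control cells (1.06 ± 0.27, limma adjusted p = 0.0309). Its cycling arrays there had 4.90, 4.83 and 5.29 and were not called. This call rested on a probe set that can bind related transcripts (an _x_at set), and the other CDT1 probe set, which read 3.26 under chronic hypoxia and 3.17 in control cells, was not called (0.09 ± 0.06, limma adjusted p = 0.388). The call was also lost when cycling replicate 1, control replicate 1 or 2 or any chronic replicate of SK-OV-3 cells was left out (adjusted p between 0.0517 and 0.0933). GMNN, which binds CDT1 and stops relicensing, rose in SK-OV-3 cells under chronic hypoxia too, to 9.30, 9.51 and 9.27, against 8.69, 8.79 and 8.81 in control cells (0.60 ± 0.09, limma adjusted p = 0.00319). Both CDT1 and GMNN were lower under chronic hypoxia in PC-3 cells (-1.23 and -1.33) as well as WM793B cells (-1.28 and -1.43), with the WM793B call for CDT1 lost in 5 of 9 tests that left out 1 array (adjusted p up to 0.0644).

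The origin recognition complex, which marks origins, had chronic medians closer to 0 than the helicase in PC-3 and WM793B cells, a difference that was not tested. Its 6 genes were all lower under chronic hypoxia in PC-3 cells, with a median of -0.62, and 3 were lower and 1 higher in WM793B cells, with a median of -0.59. ORC5 was the exception in size in PC-3 cells and the other gene that fell in all 3 lines. It had 8.18, 8.19 and 8.21 in cycling, 6.66, 7.09 and 7.07 in chronic and 9.17, 9.15 and 9.17 in control arrays of PC-3 cells. In SK-OV-3 cells the values were 7.54, 7.70 and 7.54 in cycling and 6.60, 6.44 and 6.23 in chronic arrays, against 7.46, 7.52 and 7.35 in control arrays. The chronic arrays lay below all others in both lines, and the cycling arrays lay below the control arrays in PC-3 but not in SK-OV-3 cells. The chronic log2 fold change was -2.22 ± 0.11 in PC-3 cells (limma adjusted p = 6.67e-06), -1.02 ± 0.10 in SK-OV-3 cells (adjusted p = 0.000537) and -0.61 ± 0.11 in WM793B cells (adjusted p = 0.00811). A second ORC5 probe set gave -2.12, -1.10 and -0.60. The third gave -0.23, -0.03 and 0.39 and was not called in any line.

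A pair of further subunits fell in SK-OV-3 cells under chronic hypoxia. ORC2 had 7.37, 7.62 and 7.38, against 7.77, 7.90 and 7.90 in control arrays (-0.40 ± 0.10, limma adjusted p = 0.0228), a call that was lost when control replicate 2 or 3 or chronic replicate 1 or 3 was left out (adjusted p between 0.0698 and 0.0746). A second ORC2 probe set had means of 6.53 under chronic hypoxia and 6.51 in control cells and was not called (0.02 ± 0.12, limma adjusted p = 1). ORC4 had 10.11, 10.03 and 10.16, against 10.45, 10.42 and 10.43 (-0.34 ± 0.04, limma adjusted p = 0.00118). In both genes the chronic arrays lay below all control arrays, and ORC4 was also lower under cycling hypoxia (-0.22 ± 0.04, limma adjusted p = 0.0114). ORC4 was higher in WM793B cells under chronic hypoxia, with 9.54, 9.67 and 9.45, against 9.08, 9.22 and 9.29 (0.35 ± 0.10, limma adjusted p = 0.0468), but the mean of its probe sets gave -0.11 (adjusted p = 0.576) and leaving out 1 array gave an adjusted p of up to 0.142. Cycling but not chronic hypoxia gave a call for ORC3 in SK-OV-3 cells, with 8.46, 8.39 and 8.13, against 8.85, 8.95 and 9.05 in control arrays (fell by 0.62 ± 0.11, limma adjusted p = 0.00988). The chronic arrays of ORC3, at 8.52, 8.70 and 8.80, also lay below the control arrays without passing the test (-0.28 ± 0.11, limma adjusted p = 0.139). ORC1 had means below 5 in every group, and ORC6 was lower under chronic hypoxia in both PC-3 and WM793B cells.

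CDC7 and DBF4 form 1 kinase, and under cycling hypoxia in PC-3 cells CDC7 was called lower (-0.88) and DBF4 higher (0.25). CDC7, the catalytic subunit, had 5.75, 5.59 and 5.66 in cycling, 4.09, 4.09 and 4.43 in chronic and 6.43, 6.65 and 6.59 in control arrays of PC-3 cells. The chronic log2 fold change of -2.35 ± 0.12 was the second largest of the set in that line (limma adjusted p = 7.11e-06), and all 3 groups were apart. In WM793B cells CDC7 was lower under both cycling (-0.96 ± 0.21, limma adjusted p = 0.0438, and up to 0.135 with 1 array left out) and chronic hypoxia (-1.77 ± 0.21, adjusted p = 0.00169). SK-OV-3 cells had between 3.95 and 4.60 in all arrays, below a level of 5 and close to the PC-3 chronic level. DBF4, the regulatory subunit, did not pass the test under chronic hypoxia in any line. Under cycling hypoxia it was higher in SK-OV-3 cells, with 7.23, 6.96 and 6.84, against 6.38, 6.15 and 6.07 in control cells (0.81 ± 0.20, limma adjusted p = 0.0372). The chronic arrays there, at 5.59, 6.26 and 5.68, lay lower, 2 of them below all control arrays. PC-3 cells had 8.63, 8.74 and 8.83 under cycling hypoxia, against 8.58, 8.42 and 8.46 (0.25 ± 0.07, limma adjusted p = 0.04). Both DBF4 calls were lost in most of the tests that left out 1 array of the line (adjusted p up to 0.123 for PC-3 and up to 0.117 for SK-OV-3 cells).

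PCNA, the sliding clamp, had 10.59, 10.71 and 10.75 in cycling and 9.07, 9.24 and 9.28 in chronic arrays of WM793B cells, against 11.55, 11.54 and 11.48 in control arrays. These groups were apart, and in this gene chronic replicate 3 lay with the other chronic arrays. The chronic log2 fold change of -2.33 ± 0.07 had the smallest adjusted p of the set in WM793B cells (limma, 2.91e-05), and PC-3 cells had -1.59 ± 0.09 (adjusted p = 1.14e-05). In SK-OV-3 cells the chronic arrays, at 9.34, 10.23 and 9.71, overlapped with the control arrays, at 9.95, 10.18 and 10.32 (-0.39 ± 0.23, limma adjusted p = 0.345). The clamp loader RFC puts PCNA on DNA, and its subunits RFC2, RFC3 and RFC4 were lower in chronically hypoxic PC-3 cells (-1.04, -1.82 and -0.59) as well as WM793B cells (-0.94, -1.82 and -0.97). None of these 3 was called in SK-OV-3 cells, and the WM793B call for RFC2 was lost in 7 of 9 tests that left out 1 array (adjusted p up to 0.139).

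RFC1, the large subunit of the loader, was the only gene of the set that was higher under chronic hypoxia in PC-3 cells, with 8.16, 8.13 and 8.12 in cycling and 8.15, 8.18 and 8.15 in chronic arrays, against 7.77, 7.69 and 7.87 in control arrays. Its log2 fold changes were 0.36 ± 0.04 (limma adjusted p = 0.00108) and 0.38 ± 0.04 (adjusted p = 0.00038). This was also an _x_at probe set, and the next brightest RFC1 probe set gave -0.03 ± 0.07 for chronic hypoxia (limma adjusted p = 0.849). That second probe set was higher under chronic hypoxia in SK-OV-3 (0.42, adjusted p = 0.0221) and WM793B cells (0.30, adjusted p = 0.0116). RFC5, a small subunit, was flat in its brightest probe set, with 10.43, 10.48 and 10.30 in PC-3 chronic arrays and 10.32, 10.49 and 10.39 in control arrays. Its other 2 probe sets were lower under chronic hypoxia in PC-3 cells (-0.93 ± 0.06, limma adjusted p = 1.76e-05, and -1.03 ± 0.09, adjusted p = 0.000103) as well as WM793B cells (-1.03 ± 0.22, adjusted p = 0.0164, and -1.29 ± 0.24, adjusted p = 0.0101). RFC5 was the only gene of the set whose probe sets were called in opposite directions in 1 comparison, PC-3 cycling against chronic hypoxia, where the brightest was lower and the other 2 were higher. In RefSeq GRCh38.p14 RFC5 (chr12:118016703-118041448) overlaps the gene WSB2 (chr12:118032687-118062174), and whether the brightest probe set reads one or the other was not tested.

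Polymerase alpha and primase lay the RNA-DNA primers, and POLA1, the catalytic subunit, and PRIM1, the small primase subunit, had some of the widest contrasts between the lines. POLA1 had 6.32, 6.0 and 5.97 in cycling, 4.96, 5.19 and 5.17 in chronic and 7.42, 7.32 and 7.29 in control arrays of PC-3 cells. In WM793B cells it had 5.62, 5.68 and 5.80 in cycling, 4.61, 4.34 and 5.10 in chronic and 7.48, 7.38 and 7.10 in control arrays. In SK-OV-3 cells the chronic arrays were the highest, with 5.53, 5.28 and 4.51 in cycling, 5.94, 6.04 and 6.0 in chronic and 4.95, 4.68 and 5.36 in control arrays. Chronic and control arrays did not overlap in any of the lines. The chronic log2 fold change was -2.24 ± 0.11 in PC-3 cells (limma adjusted p = 7.26e-06), -2.63 ± 0.20 in WM793B cells (adjusted p = 0.000319) and 0.99 ± 0.28 in SK-OV-3 cells (adjusted p = 0.0467). The SK-OV-3 call was lost in 6 of 9 tests that left out 1 array (adjusted p up to 0.139), and the SK-OV-3 change exceeded that of PC-3 cells by 3.23 ± 0.31 (limma adjusted p of this difference = 1.03e-07). Under cycling hypoxia POLA1 was lower in PC-3 cells (-1.25 ± 0.11, limma adjusted p = 0.000266) as well as WM793B cells (-1.62 ± 0.20, adjusted p = 0.00667). PRIM1 was called in the same directions under chronic hypoxia, at -2.23 ± 0.05 for PC-3, 0.70 ± 0.20 for SK-OV-3 and -2.12 ± 0.42 for WM793B cells, with the SK-OV-3 call lost in 7 of 9 tests that left out 1 array (adjusted p up to 0.138). POLA2 and PRIM2, the accessory subunits, were not called in SK-OV-3 cells.

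The extending polymerases were mixed in size. All 6 of their genes in the set, POLD1, POLD2, POLD3, POLE, POLE2 and POLE3, were lower under chronic hypoxia in PC-3 cells, and all but POLD1 were lower in WM793B cells. POLE2, a noncatalytic subunit of polymerase epsilon, had one of the largest decreases in WM793B cells, with 3.04, 3.05 and 4.68 in chronic and 6.78, 6.89 and 6.33 in control arrays (-3.08 ± 0.47, limma adjusted p = 0.00428, and -3.63 without the third chronic array). The cycling arrays, at 5.26, 4.95 and 5.71, lay between these groups. POLD1, the catalytic subunit of polymerase delta, rose in SK-OV-3 cells in both conditions, with 6.21, 6.25 and 6.26 in cycling and 6.78, 6.51 and 6.62 in chronic arrays, against 5.76, 5.96 and 5.73 in control arrays. These 3 groups were apart. The log2 fold change was 0.42 ± 0.09 for cycling hypoxia (limma adjusted p = 0.0211), lost in several tests that left out 1 array (adjusted p up to 0.0711), and 0.82 ± 0.09 for chronic hypoxia (adjusted p = 0.000775).

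LIG1, the ligase that joins Okazaki fragments, had the largest increase of the set. SK-OV-3 cells had 5.49, 6.20 and 6.30 under cycling hypoxia and 6.86, 6.88 and 6.17 under chronic hypoxia, against 5.18, 5.23 and 5.30 in control cells. Every hypoxic array lay above the control arrays. The chronic log2 fold change was 1.40 ± 0.26 (limma adjusted p = 0.00885), and the cycling one of 0.76 ± 0.26 did not pass the test (adjusted p = 0.124). In PC-3 cells LIG1 had 4.57, 3.99 and 4.24 under chronic hypoxia, against 5.13, 5.31 and 5.68 (-1.10 ± 0.19, limma adjusted p = 0.00311). FEN1, the nuclease that trims the same fragments before they are joined, did not share the rise, at -0.39 ± 0.22 in SK-OV-3 cells (limma adjusted p = 0.32), and was lower in PC-3 (-1.57 ± 0.07) and WM793B cells (-2.44 ± 0.27).

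RPA1, RPA2 and RPA3 coat single-stranded DNA at the fork, and as a group they had the smallest median change of the role groups in chronically hypoxic PC-3 and WM793B cells. They had a median of -0.56 in PC-3 cells, where all 3 were lower, and of -0.28 in WM793B cells, where RPA1 and RPA3 were lower. RPA3 was higher in SK-OV-3 cells, with 8.03, 8.32 and 7.83 under chronic hypoxia, against 7.24, 7.09 and 7.43 in control cells (0.81 ± 0.14, limma adjusted p = 0.00561). CHAF1A and CHAF1B, which place histones behind the fork, were lower under chronic hypoxia in PC-3 cells (-0.66 and -0.98) as well as WM793B cells (-1.37 and -0.96) and were not called in SK-OV-3 cells. Each WM793B call was lost in 6 of 9 tests that left out 1 array (adjusted p up to 0.0931 for CHAF1A and 0.118 for CHAF1B).

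Set against each other, cycling hypoxia left the genes higher than chronic hypoxia in PC-3 cells. There 30 of the 46 were higher and 1, RFC5, was lower by its brightest probe set, while its other 2 probe sets were higher. Of all genes 18.9% were higher and 7.25% lower, and the 46 genes had a median difference of 0.48. CDC7 had the largest, 1.47 ± 0.12 (limma adjusted p = 0.000351), followed by ORC5 at 1.25 ± 0.11 (adjusted p = 0.000478). In WM793B cells 7 genes were higher and none was lower, against 4.69% and 3.31% of all genes, at a median of 0.56. The 7 were FEN1, GINS3, MCM3, MCM6, PCNA, POLA1 and POLD3, and all 7 were also higher in PC-3 cells. With the replicate number as a block 4 genes were called in WM793B cells. Without the array that stood apart the WM793B count was 24, at a median of 0.89 (6.08% of all genes higher and 4.22% lower), and with any other array of the line left out it was between 1 and 7. SK-OV-3 cells had 4 higher and 3 lower genes, against 10.9% and 8.39% of all genes. The higher ones were DBF4, ORC2, ORC5 and ORC6, and the lower ones were GMNN, POLD1 and RPA3. These comparisons share their arrays with the comparisons against control and are not separate evidence.

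Many of the changes differed between the cell lines. Under chronic hypoxia 40 of the 46 genes had different log2 fold changes in the 3 lines (limma F-test of the interaction over 27 arrays, adjusted p under 0.05), against 43.8% of 18939 genes, and under cycling hypoxia 23 did, against 30.2%. In simulated data this F-test made more false calls than its threshold allows, most of them in probe sets near the lowest value in 1 or more lines. Among the 36 genes of the set with a control mean above 5 in every line it called 32 for chronic hypoxia, against 70.7% of 7920 such genes, and 18 for cycling hypoxia, against 50.3%, so the cycling count lay at the share of all such genes. MCM10, CDC45, CDC7, CDT1 and POLA1 were among the other 10. Pair by pair, the chronic change was more positive in SK-OV-3 than in PC-3 cells for 32 genes and less positive for none (19.6% and 13.1% of all genes). Between SK-OV-3 and WM793B cells it was more positive for 34 genes and less positive for 2 (16.1% and 14.9% of all genes). PC-3 and WM793B cells differed for 9 genes, 4 with the more positive change in WM793B and 5 in PC-3 cells (15.2% and 9.36% of all genes). GINS3, POLA1 and MCM6 had the smallest adjusted p in the F-test (1.59e-08, 1.86e-08 and 2.91e-08). The 6 genes with no called difference under chronic hypoxia were GINS4, ORC3, DBF4, RFC1, RFC5 and PRIM2.

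By pattern of calls under chronic hypoxia, 28 genes were lower in PC-3 and WM793B cells and not called in SK-OV-3 cells, among them the MCM2 to MCM7 ring, PCNA and FEN1. Another 6 were lower in both and higher in SK-OV-3 cells, namely CDT1, GINS3, GMNN, POLA1, PRIM1 and RPA3, and LIG1 and POLD1 were lower in PC-3 and higher in SK-OV-3 cells. CDC6 and ORC5 were lower in all 3 lines. The shares of all genes with these patterns were not counted. In SK-OV-3 cells 16.6% of all genes were lower and 14.2% higher, so not being called there was the outcome for most genes. Across the 46 genes the chronic log2 fold changes of WM793B and PC-3 cells had a Pearson r of 0.79, the pair SK-OV-3 and PC-3 had 0.01, and the pair SK-OV-3 and WM793B had 0.09. These values describe genes, which are not independent replicates, measured in the same arrays and with separate control arrays for each line.

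**Figure D4:**
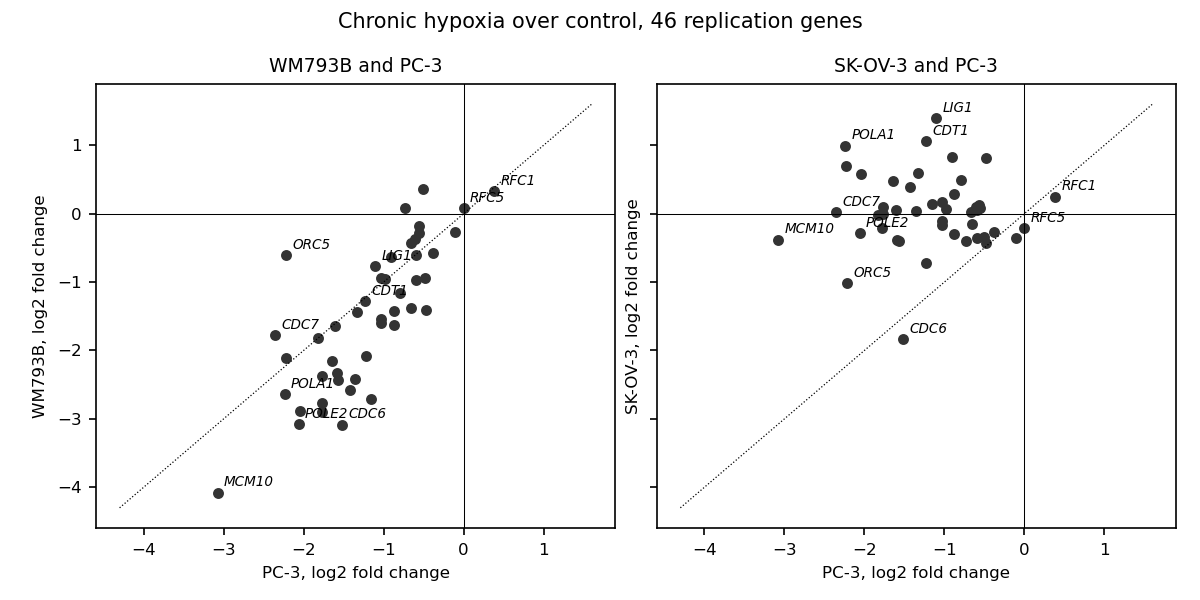
Log2 fold change under chronic hypoxia over control of the 46 replication genes in WM793B cells (left) and in SK-OV-3 cells (right), on the y axis, against PC-3 cells on the x axis; each point is a gene and the dotted line marks equal change. In the left panel most points lie in the lower left corner (r = 0.79), and in the right panel they scatter around 0 on the y axis (r = 0.01), with CDC6 and ORC5 below and LIG1, CDT1 and POLA1 above.

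The lines also differed in the control cells, kept at 21% oxygen for 72 h in the medium of each line. This was looked at after the changes had been seen and is given without a test. In control cells 34 of the 46 genes had all 3 SK-OV-3 arrays below all PC-3 and WM793B arrays, against 16.7% of 17304 genes. In 4 of the 46 all SK-OV-3 arrays lay above the others, against 20.5% of all genes. For CDC7 the control means were 4.00 in SK-OV-3, 6.55 in PC-3 and 8.09 in WM793B cells, and for RPA3 they were 7.26, 10.70 and 11.44. The median over the 46 genes of the SK-OV-3 mean minus the PC-3 mean was -1.40 in control cells and -0.08 under chronic hypoxia. Set against WM793B cells, the median difference was 0.48 under chronic hypoxia and -1.37 in control cells. The means under chronic hypoxia were higher in SK-OV-3 than in PC-3 cells for 23 genes, and in control cells for 4. These medians and these last counts were not taken over all genes, so they cannot be read as particular to the 46 genes.

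**Figure D5:**
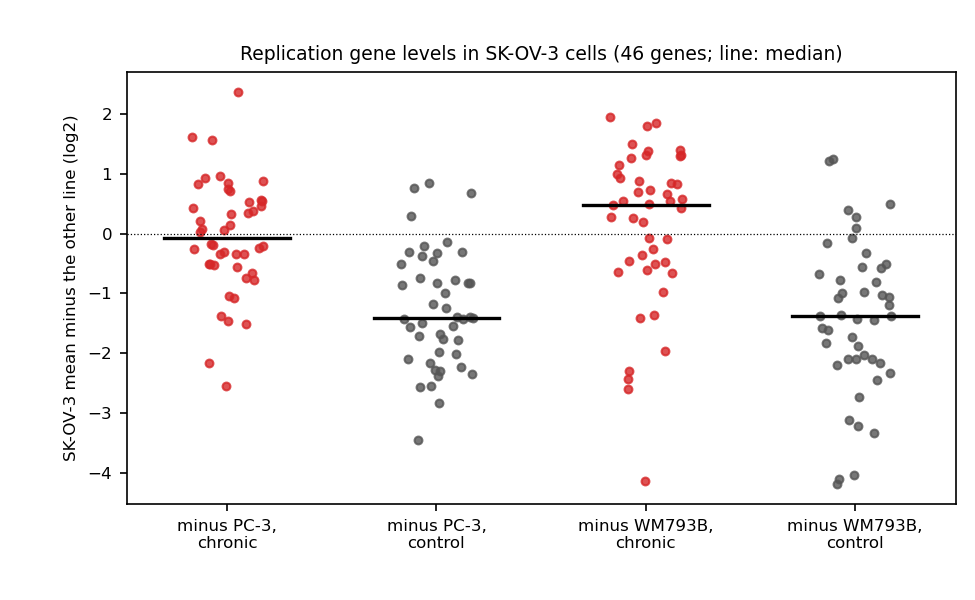
Mean log2 level in SK-OV-3 cells minus the mean in PC-3 cells (left pair) or WM793B cells (right pair), under chronic hypoxia and in control cells; each point is one of the 46 replication genes and the black lines are medians. The medians are -0.08 and -1.40 for PC-3 and 0.48 and -1.37 for WM793B cells.

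A list of 40 other genes of DNA replication, of which 39 were measured, was read in the same way. Under chronic hypoxia 29 were lower and 2 higher in PC-3 cells, 10 lower and 6 higher in SK-OV-3 cells, and 23 lower and none higher in WM793B cells, with medians of -0.86, 0.00 and -0.57. The shares of all genes lower and higher were those given above for each comparison. In SK-OV-3 cells under chronic hypoxia the share of these 39 that was higher lay near the 14.2% of all genes. The share that was lower lay above the 16.6% of all genes. Under cycling hypoxia the counts were 24 lower and 2 higher in PC-3, 5 lower and 7 higher in SK-OV-3 and 7 lower and none higher in WM793B cells. In SK-OV-3 cells both shares lay above those of all genes, 9.95% lower and 10.7% higher. DSCC1, a subunit of the alternative clamp loader, and DTL, which directs the destruction of CDT1, were among the lowest in PC-3 cells (-2.47 and -2.03) as well as WM793B cells (-2.11 and -3.14). Neither was called in SK-OV-3 cells. There PCLAF, a protein bound to PCNA, was higher (0.94 ± 0.16, limma adjusted p = 0.00576), as was TOP2A, which untangles the copies (1.00 ± 0.11, adjusted p = 0.000727). ASF1A, a histone chaperone that works with the CHAF1 proteins, was lower in SK-OV-3 cells (-1.38 ± 0.15, limma adjusted p = 0.000792).

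The members with and without an E2F match in the promoter window were set side by side as a description. The 17 genes with a match, MCM3, MCM6, POLA1 and PCNA among them, had a median chronic log2 fold change of -1.52 in PC-3 cells and of -2.15 in WM793B cells. In the 23 genes without a match the medians were -0.74 and -0.94. In SK-OV-3 cells they were 0.15 with and -0.15 without a match, so the direction seen in the other lines was not present. MCM10, with the largest decrease of the set, had no match in its window, and LIG1 and CDT1, called higher in chronically hypoxic SK-OV-3 cells, had one. The CDT1 call was lost in 6 of 9 tests that left out 1 array. The windows of CDC45, ORC1, PRIM2 and POLD2, all without a match, lay inside the annotated span of the gene. Whether a match bears on the changes was not tested.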

How the data were processed

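RNA of the 27 cultures was hybridised to Affymetrix U133 Plus 2.0 arrays. The deposited values are log2 signals that the authors made with GC-RMA in the Bioconductor gcrma package, 1 column per array with no pooling, and 32.6% of them lie at the lowest value, 2.28. Probe sets were named from GEO's platform annotation, in which 1801 carry several symbols and 11777 none, and these were left out. In each cell line, limma 3.58.1 in R 4.3.3 (lmFit, contrasts, eBayes with trend) was fitted to the 9 arrays and all probe sets that vary, with Benjamini-Hochberg adjustment over all of them and a threshold of 0.05. Differences between lines came from a fit of all 27 arrays. The fits were tested on simulated data, in which the test between lines made excess false calls among probe sets near the lowest value. The replicate numbers come from the labels, which name no shared batch. Arrays with the same number all correlated above pairs of different numbers only between cycling and chronic hypoxia in WM793B cells. There the 3 pairs lay between 0.110 and 0.205 and pairs of different numbers up to 0.0755, and the blocked count is given for that comparison. Between cycling hypoxia and control in WM793B cells the 3 same-number pairs were also positive (0.085 to 0.291). They overlapped with pairs of different numbers (-0.251 to 0.182). The study's variation filter (1.5-fold from the median in 20% of arrays) uses measured variation and served as an alternative. The lowest correlation between arrays of a group was 0.994, and no arrays were identical. The number of arrays limits the precision. The 46 genes, the side lists and the choice of tests were made with earlier results of these data known. Genes named in detail are the 3 with the largest changes in each comparison, up to 5 that went against the rest, the 3 with the smallest adjusted p in the test between lines, and genes of each role group. Promoter sequences are RefSeq's, on GRCh38.p14.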

Additional observations from a re-analysis of the deposited data

Results flagged for a closer look

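The changes under hypoxia differed between the 3 cell lines for many of the replication genes (limma F-test of the interaction, 27 arrays). Under chronic hypoxia this held for 40 of the 46 and under cycling hypoxia for 23, against 43.8% and 30.2% of all genes. Of the 36 with a control mean above 5 in every line, 32 and 18 were called, against 70.7% and 50.3% of all such genes. Among the genes described above, the adjusted p for the chronic response was 1.59e-08 for GINS3, 1.86e-08 for POLA1, 2.91e-08 for MCM6, 2.46e-07 for ORC5, 2.72e-07 for CDC7, 1.245e-06 for ORC4, 1.29e-05 for LIG1, 2.22e-05 for MCM10 and 2.28e-05 for CDT1. For POLE2 it was 0.000206, for ORC2 0.000513 and for CDC6 0.0304. CDC6 fell in every line, so its difference is one of size, whereas POLA1, GINS3, LIG1 and CDT1 rose in SK-OV-3 cells under chronic hypoxia and were lower in PC-3 cells. The SK-OV-3 calls for POLA1, GINS3 and CDT1 were lost in 6, 7 and 6 of 9 tests that left out 1 array, and that for LIG1 in none. The CDT1 call also rested on an _x_at probe set.

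In the cycling response the lines differed for POLA1 (limma adjusted p = 0.000598), MCM6 (0.000794), CDC45 (0.00287), MCM10 (0.00312), MCM3 (0.00605), POLD1 (0.00772) and DBF4 (0.0338). POLD1 was higher in SK-OV-3 cells, and DBF4 was higher in SK-OV-3 and PC-3 cells, while the other 5 were lower in PC-3 cells and not called in SK-OV-3 cells. With 1 array left out the POLD1 call was lost in 5 of 9 tests, and the DBF4 calls in 7 of 9 for SK-OV-3 and 5 of 9 for PC-3 cells.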

How the results depend on the processing

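Counts are of the 46 replication genes called at an adjusted p under 0.05 by limma, in either direction. At least a 2-fold change left 26 of 44 genes for chronic and 9 of 35 for cycling hypoxia in PC-3 cells and 4 of 31 for cycling against chronic hypoxia. In SK-OV-3 cells it left 4 of 12, 0 of 4 and 2 of 7, where 10 genes had an unadjusted p under 0.05 for cycling hypoxia. Testing only probe sets above a level of 5 called 7 genes for SK-OV-3 cycling hypoxia and 12 for cycling against chronic hypoxia, and 28 and 20 for the same comparisons in WM793B cells, where 10 and 7 were called. With the study's variation filter these WM793B counts were 18 and 14, with the 6 arrays of each comparison 24 and 4, and with 27 arrays in 1 fit 31 and 23. That last fit called 18 genes for PC-3 cycling against chronic hypoxia. The cause was not tested. Shares of all genes called under these settings, or with an unadjusted p under 0.05, were not counted. The larger counts therefore cannot be read as particular to the 46 genes.

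Leaving out 1 array gave 41 to 44, 30 to 35 and 26 to 31 genes in PC-3 cells for chronic, cycling and cycling against chronic hypoxia. In SK-OV-3 cells the counts ran over 7 to 13, 2 to 5 and 4 to 10, and in WM793B cells over 27 to 40, 5 to 25 and 1 to 24. The WM793B counts of 25 and 24 came without chronic replicate 3, and those for cycling hypoxia fell to 5 without control replicate 1 or 2 and to 6 without cycling replicate 1 or 2. For WM793B cycling against chronic hypoxia 1 gene was left without cycling replicate 1, 3 without cycling replicate 2 and 4 without chronic replicate 1 or 2. In SK-OV-3 cells 2 genes were left for cycling hypoxia without cycling replicate 2 or 3 or control replicate 1 or 3, 4 for cycling against chronic hypoxia without cycling replicate 2, and 7 for chronic hypoxia without control replicate 2. The differences between lines held for 35 to 42 genes under chronic and 18 to 30 under cycling hypoxia. The count lowest in SK-OV-3 control cells, 34, ran from 32 to 37 over its settings, which were chosen after seeing the data.

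RFC1 in PC-3 cells changed sign for chronic hypoxia without _x_at probe sets (-0.0282, adjusted p = 0.849), and ORC4 in WM793B cells did so with the mean of its probe sets (-0.1118, adjusted p = 0.576). Apart from cycling and chronic hypoxia in WM793B cells, arrays with the same number did not all correlate above pairs of different numbers. Over all pairs of groups, arrays with the same number correlated between -0.064 and 0.204 for PC-3, -0.117 and 0.230 for SK-OV-3 and -0.034 and 0.291 for WM793B cells. The 0.291 was between cycling hypoxia and control. With the replicate block the counts were 44, 33 and 28 for PC-3, 9, 2 and 5 for SK-OV-3 and 34, 8 and 4 for WM793B cells, and 39 and 21 genes differed between lines. The tests that left out 1 array were followed gene by gene for only a part of the calls. Where such a call is described above, its loss is given beside the gene. The other single-gene calls were not followed, so a gene without such a value cannot be taken as stable. Among the calls followed, the block ended single-gene calls only where the adjusted p was above 0.02 without it.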
